A study of Mus musculus with 2 samples.

Results

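The receptors examined here are 5 genes through which the mammary epithelium reads circulating hormones: Esr1 (oestrogen receptor alpha), Pgr (progesterone receptor), Prlr (prolactin receptor), Nr3c1 (glucocorticoid receptor) and Ghr (growth hormone receptor). They were taken by symbol from the 27998 rows of the gene table and read in a 10X Genomics Chromium library of the total mammary epithelium, with a second library of sorted basal cells beside it. The cells came from adult female FVB/NJ mice, 8 for the 2 libraries together. The matrices do not tie a cell to a mouse, so each group is 1 library with no replicate. The total epithelium was gated as Lin-CD24+ and the basal cells as Lin-CD29hiCD24+, where Lin- excludes cells with the blood and endothelial markers CD45, TER-119 and CD31. The labels give no treatment for either group and no stage of the oestrous cycle.

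Esr1, Pgr and Nr3c1 encode nuclear receptors, transcription factors that bind a steroid and then act on DNA. Prlr and Ghr encode cytokine receptors of the cell surface that signal through the kinase Jak2 and the transcription factors Stat5a and Stat5b. In the adult gland, oestrogen and progesterone act mainly on mature luminal cells, which pass the signal to their neighbours through secreted factors such as amphiregulin (Areg), Wnt4 and RANKL (Tnfsf11). Prolactin drives the secretory programme of luminal cells, and growth hormone acts on the gland largely through local growth factors.

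The total epithelium library held 3302 cells with 9227651 counts, between 802 and 12967 per cell. For the sorted basal cells the numbers were 4771 cells and 2488704 counts, or 137 to 1946 per cell. A count is a transcript molecule read once at its 3′ end, so it is not scaled by gene length. With 1 library per group there was no test, and all 95% intervals (exact binomial for shares of cells, exact Poisson for summed counts and their ratios) cover counting error only. The same 28 cell barcodes occurred in both libraries.

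Cells of the total epithelium were split by marker counts. The basal class needed 10 or more counts of Krt5 + Krt14 + Acta2 and held 1306 cells, 39.6% of the library, with a median depth of 1838.5 counts. The mature luminal (ML) class needed 8 or more counts of Stc2 + Gpx3 and held 1079 cells (32.7%, median 3446). The luminal progenitor (LP) class took the remaining cells with 3 or more counts of the luminal keratins Krt8 + Krt18 + Krt19 and held 820 cells (24.8%, median 2526). The other 97 cells (2.94%, median 1184) met none of the rules.

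Markers outside the rules went with the class names. The ML markers Areg, Ly6d and Cxcl15 had a count in 78.0%, 86.2% and 81.7% of ML cells, against 16.7%, 30.7% and 12.4% of LP cells. The LP markers Csn3, Cd14 and Elf5 had a count in 76.3%, 74.6% and 47.3% of LP cells, against 14.7%, 19.3% and 7.51% of ML cells. The basal markers Cxcl14 and Myl9 had a count in 95.9% and 92.4% of basal cells. Lcn2, on the LP list, did not separate LP (82.2%) from basal cells (83.2%).

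A few sets of cells went against their class and touch the receptor values below. First, 25 cells passed both the basal and the ML cut and were counted as basal. Their median depth was 4653 counts. Second, 10 ML cells had under 3 luminal keratin counts. They passed through Gpx3 (median 28 counts), with a median of 0 counts of Stc2, and all 10 had the collagen Col3a1, which was found in 7 of the other 1069 ML cells. Finally, 141 LP cells had 3 to 7 counts of Stc2 + Gpx3, just under the ML cut. Near that cut, 56 ML cells had 8 or 9 rule counts and 50 LP cells had 6 or 7.

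All 5 genes are protein-coding, and they were placed by Ensembl identifier on GRCm38 with the GENCODE annotation. Pgr (ENSMUSG00000031870) spans chr9:8899833-8968611 on the plus strand. Esr1 (ENSMUSG00000019768) spans chr10:4611593-5005614 on the plus strand. Prlr (ENSMUSG00000005268) spans chr15:10177238-10349180 on the plus strand. Ghr (ENSMUSG00000055737) spans chr15:3317760-3583492 on the minus strand. Nr3c1 (ENSMUSG00000024431) also lies on the minus strand of its chromosome. A gene on the same strand, Gm21973, overlaps Prlr and had 0 counts in the total epithelium. No annotated gene overlaps the other 4 receptors.

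Prlr, Pgr and Esr1 were the receptors highest in ML cells, so sequence upstream of their starts is shown for them. Each run is the 250 bases before a start in the RefSeq promoter table (GRCm38.p6), 5′ to 3′ on the gene's strand. Capitals mark matches to motifs searched on both strands.
Pgr (chr9:8899583-8899832): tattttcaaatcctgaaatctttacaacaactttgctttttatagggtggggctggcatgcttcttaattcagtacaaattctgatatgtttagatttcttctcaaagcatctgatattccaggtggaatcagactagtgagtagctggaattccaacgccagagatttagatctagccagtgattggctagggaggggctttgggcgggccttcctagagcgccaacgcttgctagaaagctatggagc
Prlr, the second of 3 listed starts (chr15:10223656-10223905): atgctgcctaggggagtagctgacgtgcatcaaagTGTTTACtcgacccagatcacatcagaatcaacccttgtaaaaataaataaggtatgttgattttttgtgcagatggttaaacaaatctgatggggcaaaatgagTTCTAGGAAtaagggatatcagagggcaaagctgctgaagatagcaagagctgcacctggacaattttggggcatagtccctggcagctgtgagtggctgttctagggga
Esr1, the second of 2 listed starts (chr10:4709908-4710157): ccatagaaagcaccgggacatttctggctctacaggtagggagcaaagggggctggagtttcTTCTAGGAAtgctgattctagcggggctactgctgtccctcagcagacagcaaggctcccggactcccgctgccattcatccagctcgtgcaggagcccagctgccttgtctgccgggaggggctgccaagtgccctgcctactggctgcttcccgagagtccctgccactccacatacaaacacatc
The motifs were the oestrogen response element (GGTCA and TGACC with 3 bases between them), the forkhead motif TGTTTAC, the GATA motif AGATAA, the STAT motif TTCNNNGAA and the element shared by glucocorticoid and progesterone receptors (AGAACA and TGTTCT with 3 bases between them). Both the Prlr and the Esr1 window held the same STAT match, TTCTAGGAA, at 110 to 102 bases before the Prlr start and 188 to 180 bases before the Esr1 start. The Prlr window also held a forkhead match at 215 to 209 bases before the start. The Pgr window held none of the 5 motifs, and neither did the windows of the other Prlr and Esr1 starts, which are not shown. The Prlr and Esr1 windows printed are thus those with a match. The windows of the listed Ghr starts were also searched and held none. Among all 32851 windows of this length, 7.02% held the STAT motif, 3.17% the forkhead motif, 9.99% the GATA motif, 0.0639% the oestrogen response element and 0.00913% the last element. A match is a string of letters and not a shown binding site, and counting at the 3′ end does not tell which start a transcript used.

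Prlr was seen in nearly every ML cell. It had a count in 1036 of 1079 ML cells (96.0%, 94.7 to 97.1%), 252 of 820 LP cells (30.7%, 27.6 to 34.0%), 68 of 1306 basal cells (5.21%, 4.07 to 6.55%) and 3 of the 97 other cells (3.09%). Its level was 1860 counts per 1000000 (CPM) in ML, 344 in LP, 70.2 in basal and 18.8 in the other cells. The ML level was 5.40-fold that of LP (5.02 to 5.82) and 26.5-fold that of basal cells (23 to 30.7). ML cells held 88.1% of all Prlr counts in the library. With each cell thinned to 800 counts, 72.7% of ML, 17.6% of LP and 2.59% of basal cells would show Prlr, so the order was the same at equal depth.

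Much of the Prlr outside ML lay in the cells near its cut. The 141 LP cells with 3 to 7 Stc2 + Gpx3 counts had Prlr in 86.5% of cells and at 1640 CPM, while the 533 LP cells with none had it in 15.9% of cells and at 80.1 CPM. Against the latter cells ML was 23.2-fold higher (19.3 to 28.1). In the basal class, the 25 cells that also passed the ML cut held 135 of the 195 Prlr counts, in 23 cells. Without them 3.51% of basal cells had Prlr and the level was 22.6 CPM, 82.3-fold below ML (63.9 to 108).

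Pgr had a count in 184 ML cells (17.1%, 14.9 to 19.4%), 12 LP cells (1.46%, 0.758 to 2.54%) and 17 basal cells (1.30%, 0.760 to 2.08%). None of the 97 other cells had one, which allows a share of up to 3.73%. Its levels were 58.1 CPM in ML, 6.90 in LP and 7.92 in basal cells, and the LP and basal levels did not differ beyond counting error (ratio 0.871, 0.427 to 1.74). ML exceeded LP 8.43-fold (5.08 to 15) and held 85.9% of all Pgr counts. The LP counts were again near the ML cut: 15 of the 16 lay in the 141 cells with 3 to 7 rule counts, where Pgr was at 41.1 CPM, and 1 lay in the remaining 679 LP cells. Against the 533 LP cells with no rule count, which held this 1 count, the ratio was 85.6 with a counting interval of 15.2 to 3396. In the basal class, 13 of 22 Pgr counts came from 8 of the 25 cells past both cuts.

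Esr1 was sparser. It had a count in 96 ML cells (8.90%, 7.27 to 10.8%), 17 LP cells (2.07%, 1.21 to 3.30%), 11 basal cells (0.842%, 0.421 to 1.5%) and 1 of the other cells. Its levels were 29.7 CPM in ML, 9.06 in LP and 5.40 in basal cells. ML exceeded LP 3.28-fold (2.05 to 5.50) and basal cells 5.50-fold (3.20 to 10.1), while LP and basal did not differ beyond counting error (ratio 1.68, 0.824 to 3.50). Without the 25 cells past both cuts, LP was 2.19-fold above basal (1.01 to 5.02), but LP cells with no rule count were not (1.15-fold, 0.377 to 3.24). Of the 21 LP counts, 11 lay in the 141 cells near the ML cut, at 30.1 CPM. The 533 LP cells with no rule count were at 4.75 CPM, which put ML 6.25-fold higher (2.94 to 15.9).

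Nr3c1 ran the other way. It had a count in 33 ML cells (3.06%, 2.11 to 4.27%), 50 LP cells (6.10%, 4.56 to 7.96%), 97 basal cells (7.43%, 6.06 to 8.99%) and 12 of the 97 other cells (12.4%, 6.56 to 20.6%). The levels were 9.31 CPM in ML, 26.7 in LP, 43.2 in basal and 150 in the other cells, and the 4 intervals of the levels did not overlap. LP exceeded ML 2.87-fold (1.88 to 4.44) and basal cells exceeded ML 4.64-fold (3.19 to 6.90). At 800 counts per cell the shares were 0.711% in ML, 1.91% in LP, 3.51% in basal and 9.96% in the other cells. Among the other cells, Nr3c1 was at 191 CPM in the 42 with 3 or more fibroblast marker counts and at 115 CPM in the remaining 55, with overlapping intervals. In ML, 6 of the 37 counts came from 5 of the 10 collagen-bearing cells with under 3 luminal keratin counts, and the other 1069 cells were at 7.85 CPM.

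Ghr differed less between ML, LP and basal cells than Nr3c1. It had a count in 65 ML cells (6.02%, 4.68 to 7.61%), 58 LP cells (7.07%, 5.41 to 9.05%), 118 basal cells (9.04%, 7.54 to 10.7%) and 6 other cells (6.19%, 2.30 to 13.0%). The levels were 18.6 CPM in ML, 28.5 in LP and 47.2 in basal cells. Basal exceeded ML 2.53-fold (1.89 to 3.42) and LP exceeded ML 1.53-fold (1.08 to 2.16). The 37.5 CPM of the other cells, from 6 counts, could not be placed in this order. The LP cells near the ML cut did not differ from the rest of LP in Ghr beyond counting error, at 32.9 CPM (17.0 to 57.4) against 27.6 CPM (20.8 to 36.1).

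**Figure D1:**
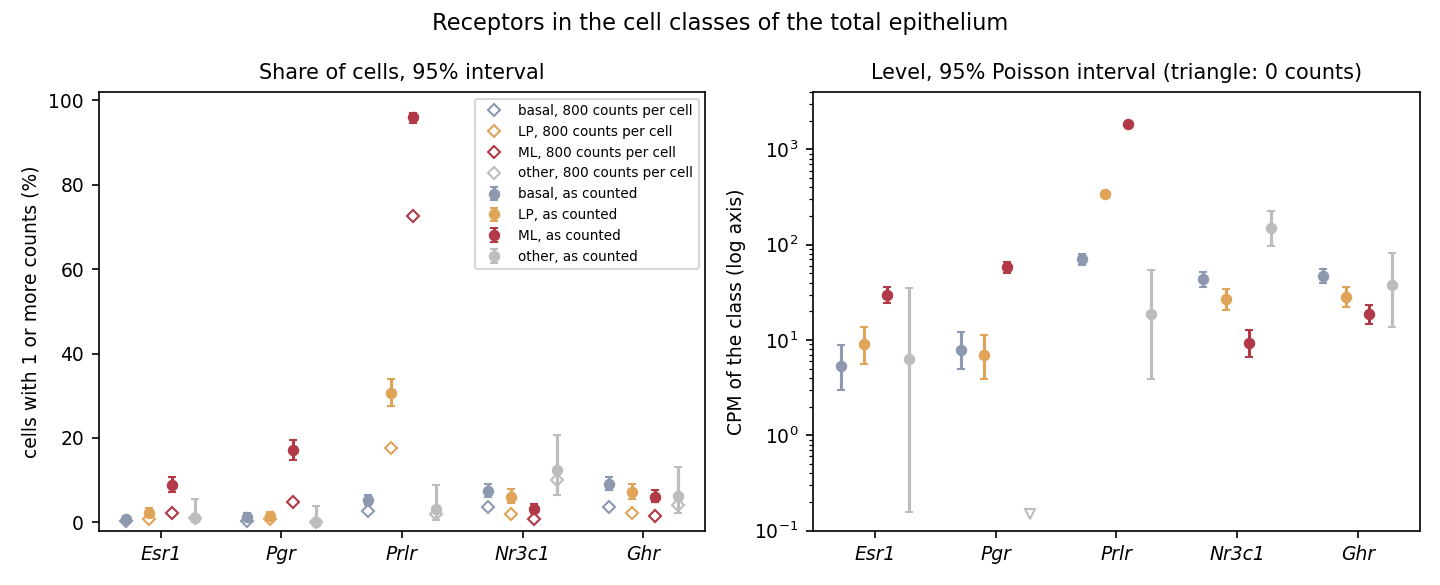
Share of cells with a count (left, percent) and level in CPM (right, log axis) of the 5 receptors in the 4 cell classes of the total epithelium. Filled points are the values as counted with 95% intervals, open diamonds the shares with each cell thinned to 800 counts, and the open triangle a class with 0 counts. Prlr, Pgr and Esr1 were highest in ML (1860, 58.1 and 29.7 CPM), and Nr3c1 and Ghr were lower in ML than in basal cells.

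The cells outside the basal class that had luminal keratin were then ordered by their number of Stc2 + Gpx3 counts, the values the ML rule used. Prlr went from 80.1 CPM in cells with 0 counts to 168 with 1 or 2 and 1640 with 3 to 7. From 8 counts upward it stayed between 1786 and 1961 CPM. Pgr had 1 count in the 679 cells with 2 or fewer rule counts and lay between 41.1 and 66.4 CPM in the cells with 3 or more. Esr1 was at 5.12 CPM (2.45 to 9.41) in cells with 2 or fewer rule counts and at 30.1 CPM (15 to 53.9) with 3 to 7, and then stayed between 23.2 and 41.7 CPM. Nr3c1 took the opposite step, from 27.8 and 39.5 CPM below 3 rule counts to between 5.48 and 9.62 CPM above. Its 5.48 CPM in the cells with 3 to 7 rested on only 2 counts (0.663 to 19.8 CPM). The cells with 2 or fewer were together at 30.7 CPM (23.4 to 39.5). For these 4 genes the LP cells with 3 to 7 rule counts were thus nearer to ML than to the LP cells with fewer, for Nr3c1 on 2 counts. Prlr also differed below them, as its intervals with 0 counts (66.3 to 96.0 CPM) and with 1 or 2 (134 to 209 CPM) did not overlap. Ghr showed no such step between LP and ML. Within ML it went from 34.0 CPM (21.3 to 51.5) with 8 to 15 rule counts to 23.3 with 16 to 31, 8.55 (3.69 to 16.9) with 32 to 63 and 15.3 (9.68 to 22.9) with 64 or more.

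**Figure D2:**
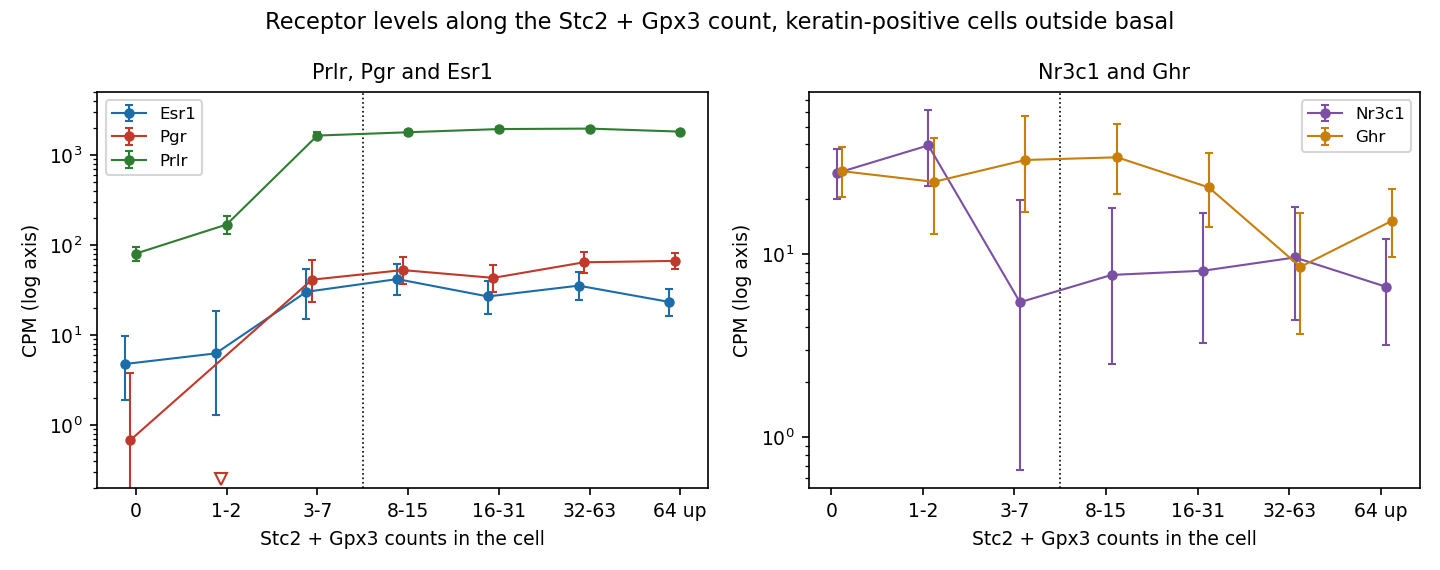
Level in CPM (log axis) of each receptor in keratin-positive cells outside the basal class, grouped by the Stc2 + Gpx3 count of the cell (x axis). Bars are 95% Poisson intervals, the triangle marks a group with 0 counts, which the Pgr line passes over, and the dotted line the cut between LP and ML. Prlr, Pgr and Esr1 are higher and Nr3c1 is lower in the groups with 3 or more counts than in those with 2 or fewer.

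RNA released from ML cells can give counts in other droplets, so the basal class without the 25 cells past both cuts was read against 7 genes of the ML marker list. Their basal level was between 0.379% (Cxcl15) and 3.69% (Foxa1) of their ML level. Prlr was at 1.21% (0.926 to 1.57%), inside that range. The part of free RNA in these counts was not tested. Pgr was at 5.83% (2.63 to 11.3%) from 9 counts and Esr1 at 13.9% (6.78 to 25.9%) from 11 counts. Both values lay above those of all 7 reference genes, and both intervals overlapped that of Foxa1 (1.34 to 8.16%). Nr3c1 and Ghr were higher in basal than in ML cells, at 481% and 253% of the ML level. In the 533 LP cells without a rule count, Prlr was at 4.31% and Pgr at 1.17% of the ML level, both between Cxcl15 (0.888%) and Ly6d (5.05%), the lowest and highest of the 7 genes. Esr1 was at 16% from 7 counts, above all 7.

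The sorted basal library gave few counts of the ML receptors. Esr1 had 8 counts in 6 of 4771 cells (0.126%, 0.0462 to 0.274%) and Pgr 8 counts in 6 cells. Prlr had 65 counts in 18 cells (0.377%), of which 13 cells with 29 counts met the LP rule. Outside the LP and ML classes, 3 cells held 32 Prlr counts, 30 of them in 1 cell. Nr3c1 had a count in 120 cells (2.52%, 2.09 to 3.0%; 69.1 CPM) and Ghr in 167 cells (3.50%, 3.0 to 4.06%; 87.6 CPM). This library was shallower, with a median of 487 counts per cell. Thinned to 200 counts, which left out 425 of its cells, 1.23% of its cells would show Nr3c1 and 1.57% Ghr, against 0.932% and 0.944% of the basal class of the total epithelium. With the same thinning Prlr would be seen in 0.184% against 0.790%. The sort and the library cannot be told apart in these differences.

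Within ML cells, detection followed depth. In the shallowest of 10 equal bins of ML cells (817 to 1762 counts) Prlr was seen in 82.4% of cells, Pgr in 11.1%, Esr1 in 4.63%, Ghr in 2.78% and Nr3c1 in 0.926%. In the deepest bin (5903 to 12967 counts) the shares were 100%, 25.2%, 15%, 10.3% and 8.41%. If every ML cell had carried each receptor at the class level, Poisson sampling at the observed depths would give Prlr in 98.5% of cells, Pgr in 18.9%, Esr1 in 10.3%, Ghr in 6.58% and Nr3c1 in 3.36%. The observed shares of 96.0%, 17.1%, 8.90%, 6.02% and 3.06% were each below these values. The intervals of Pgr, Esr1, Ghr and Nr3c1 held the even-level share, while that of Prlr (94.7 to 97.1%) lay below it. The even-level shares were made from the same summed counts, so an interval that holds one does not show an even level. At an even level most ML cells would still have no Pgr or Esr1 count. Cells without one are therefore not shown to lack the transcript at this depth.

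**Figure D3:**
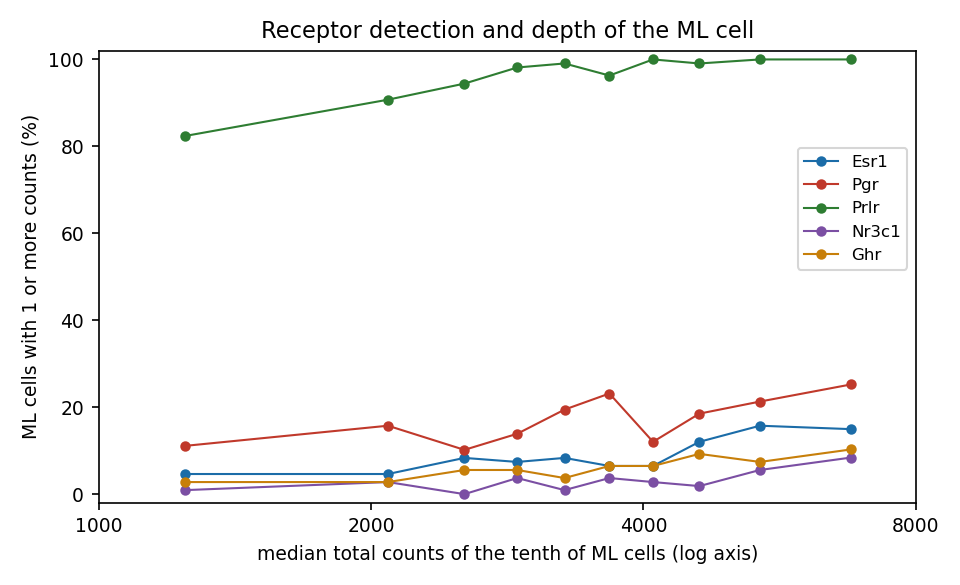
Share of ML cells with a count of each receptor (y axis, percent) in 10 equal bins of total counts, placed at the median depth of the bin (x axis, log scale). Each point is a bin of about 108 cells of the same library. The share of cells with Prlr goes from 82.4% to 100% and the share with Pgr from 11.1% to 25.2%.

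Prlr was the only receptor with several counts in most ML cells, with a median of 6, quartiles of 3 and 10, and a highest value of 38. Pgr had 1 count in 144 of its 184 positive cells and at most 3, and Esr1 had 1 count in 79 of 96 and at most 4. Prlr was not seen in 43 ML cells, whose median depth of 1916 counts compares with 3502.5 in the Prlr-positive cells. Of these 43 cells, 9 were among the 10 collagen-bearing cells with under 3 luminal keratin counts. The other 34 had a median depth of 1746.5 counts, and Prlr was found in 1035 of the 1069 ML cells with 3 or more such counts (96.8%).

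Co-detection of the receptors in ML cells was counted for all 10 pairs and set beside the number expected from the separate shares within the 10 depth bins. All 96 Esr1-positive cells also had Prlr (100%, 96.2 to 100%), with 93.5 cells expected. Prlr was found in 181 of the 184 Pgr-positive cells, with 178 expected. Esr1 and Pgr were found together in 19 cells, with 17.6 expected (observed over expected 1.08, 0.65 to 1.67). Put the other way, Pgr was seen in 19.8% (12.4 to 29.2%) of the Esr1-positive and 16.8% (14.5 to 19.3%) of the Esr1-negative ML cells. Thus neither steroid receptor was seen more often, beyond counting error, in cells with the other.

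The pairs with the scarcer receptors lay near or below expectation. Ghr was found with Prlr in 63 cells (63.4 expected), with Pgr in 13 (11.8 expected) and with Esr1 in 5 (6.57 expected). Nr3c1 was found with Prlr in 28 cells (32.3 expected), with Pgr in 5 (6.54 expected), with Esr1 in 1 (3.55 expected) and with Ghr in 1 (2.38 expected). The interval of the observed over the expected number held 1 for all 10 pairs. It takes the expected number as fixed, so holding 1 does not show that a pair was independent. Nr3c1 was seen in 2.70% (1.80 to 3.88%) of Prlr-positive and 11.6% (3.89 to 25.1%) of Prlr-negative ML cells. The Nr3c1 and Prlr pair included the 10 collagen-bearing cells, where Nr3c1 was seen in 5 and Prlr in 1. In ML cells with 3 or more luminal keratin counts this pair was at 0.975 of expectation (0.645 to 1.41).

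**Figure D4:**
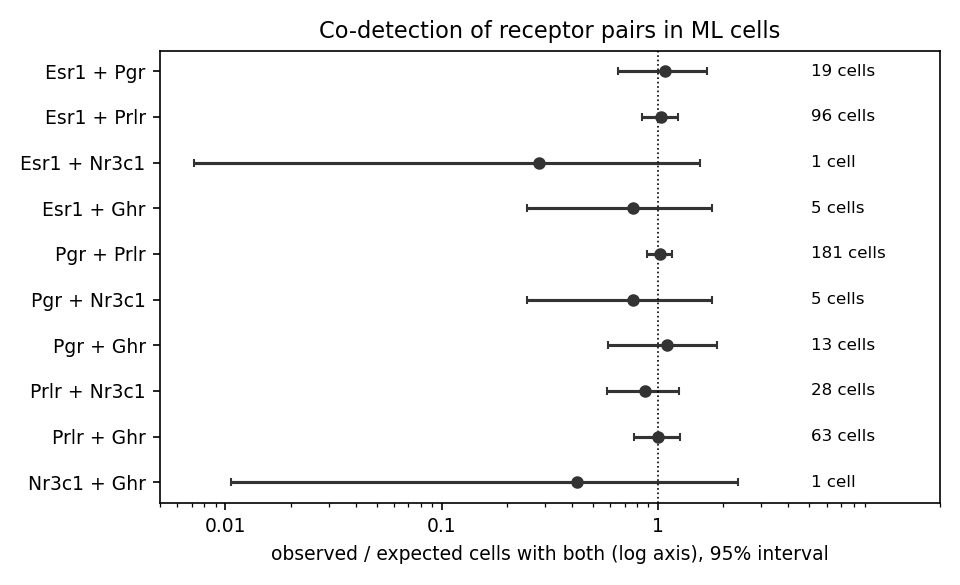
Number of ML cells with both receptors of a pair divided by the number expected within depth bins (x axis, log scale), for the 10 pairs. Points are ratios, bars 95% binomial intervals of the observed number, the dotted line equality, and the number of cells stands at the right. All 10 intervals hold 1, and the widest belong to the pairs seen together in 1 cell. Pairs with Prlr, seen in 96.0% of ML cells, could hardly lie far above 1.

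By the number of receptors seen per cell, 33 ML cells had none, 718 had 1, 292 had 2, 32 had 3, 4 had 4 and no cell had all 5. Cells with 2 or more made up 30.4% (27.7 to 33.2%), 328 cells where 323 were expected. Prlr alone was the commonest pattern (708 cells, 65.6%), followed by Pgr with Prlr (148), Esr1 with Prlr (75) and Prlr with Ghr (48). Esr1, Pgr and Prlr without the other 2 were seen in 15 cells. With cells thinned to 800 counts, 6.73% of ML cells would show 2 or more receptors. Pgr was seen in 13.0% (9.15 to 17.8%) of ML cells with 1 to 3 Prlr counts and 20.3% (16.6 to 24.4%) of those with 8 or more. Their Pgr levels were 54.4 and 60.6 CPM, and their median depths 2645 and 3997 counts.

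Outside ML the same pairs were counted. In LP, all 12 Pgr-positive cells had Prlr, as did 12 of the 17 Esr1-positive cells. Pgr and Esr1 were together in 1 LP cell and in no basal cell. In basal cells Prlr was seen in 9 of 17 Pgr-positive and 5 of 11 Esr1-positive cells, and 8 of those 17 were among the 25 cells past both cuts. Nr3c1 and Ghr were seen together in 9 basal and 6 LP cells.

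The receptors were next set among all genes and among lists of hormone-response genes, comparing ML with LP in the 7749 genes with 50 or more counts. Of these, 13.4% were 2-fold or more higher in ML and 8.72% 2-fold or more lower, with a median ratio of 1.2. Esr1, Pgr and Prlr were among the former and Nr3c1 among the latter. Ghr passed neither limit. The lists were drawn up with earlier results of these data known, and nothing is called particular to a list.

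Among 12 measured partners and chaperones of the steroid receptors, 2 were higher in ML and none lower. They were Foxa1, a pioneer factor for the oestrogen receptor (61.2 against 11.6 CPM, 5.25-fold), and the co-activator Cited1 (1269 against 309 CPM, 4.10-fold). Both are also on the ML marker list, so their higher level in ML is not a separate result. Gata3, a luminal transcription factor, was at 243 against 127 CPM (1.92-fold). The chaperones Hsp90ab1 and Hsp90aa1 had ratios of 1.04 and 0.851 and the co-chaperone Fkbp4 1.14. The list median was 1.18. Of the other steroid receptors, Nr3c2 had 10 counts in ML and 9 in LP, and Esr2 had none in either. The 3 members of that list with enough counts, Esrra, Pgrmc1 and Pgrmc2, had ratios of 0.973, 1.29 and 0.890.

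Of 5 measured oestrogen targets, 2 were higher in ML and none lower. Areg, the ligand that carries the oestrogen signal to neighbouring cells, was at 3075 CPM in ML and 223 in LP (13.8-fold). Areg is also on the ML marker list, so its higher level in ML is not a separate result. Myb was at 30.7 and 3.45 CPM (8.90-fold). Xbp1, Nrip1 and Ccnd1 had ratios of 1.13, 1.01 and 0.793. The targets Tff1 and Tff3 had no count in ML or LP, and Greb1 had 2 in ML and none in LP. Of 6 measured progesterone effectors, Wnt4 (31.7 against 7.76 CPM, 4.09-fold) and Fgfr2 (97.2 against 30.2 CPM, 3.22-fold) were higher in ML and Id2 lower (57.4 against 238 CPM, ratio 0.242). Tnfsf11 was at 13.8 against 8.63 CPM (1.61-fold) and Calca at 13.1 against 6.90 CPM (1.90-fold). Tnfsf11 counts were seen in 3.61% of ML cells, fewer than had Pgr.

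Of 13 measured genes of prolactin and growth hormone signalling, 4 were higher in ML and 2 lower, with a median ratio of 1.18. Those higher were Tph1, the enzyme that starts serotonin synthesis (989 against 69.9 CPM, 14.2-fold), the feedback inhibitors Socs3 (2.54-fold) and Socs2 (2.07-fold), and Stat5a (84.6 against 34.9 CPM, 2.42-fold). Stat5b was at 20.1 and 20.7 CPM, and Jak2 was at 10.6 and 7.76 CPM. Those lower were Elf5, the transcription factor of the secretory lineage that acts downstream of prolactin (42.3 against 351 CPM, ratio 0.121), and the kinase Lyn (0.387). Elf5 is also on the LP marker list. Prlr and Elf5 were thus highest in different luminal classes. Neither Prl nor Gh, the ligands, had a count in ML or LP, and Igf1 had 11 counts in ML and 4 in LP.

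Of 11 measured glucocorticoid targets, none was 2-fold higher in ML and 5 were 2-fold or more lower. The list median ratio was 0.503, against 1.2 over all genes. The 5 were Cebpb (20.1 against 115 CPM, ratio 0.175), Fkbp5, a co-chaperone of the receptor (6.54 against 36.2 CPM, 0.181), the ERBB inhibitor Errfi1 (354 against 1735 CPM, 0.204), the transcription factor Klf9 (103 against 361 CPM, 0.285) and the clock gene Per1 (19.9 against 67.7 CPM, 0.294). Tsc22d3 and Dusp1 were just short of the limit at 0.503 and 0.504, and the ion transport kinase Sgk1 was at 736 against 687 CPM (1.07). In basal cells, where Nr3c1 was higher than in LP, Errfi1 was at 2215 CPM and Klf9 at 330 CPM but Fkbp5 at 2.88 CPM and Per1 at 23.8 CPM. These genes have inducers other than glucocorticoids, and the part of any of them was not tested.

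Enzymes that convert steroids were few. Of 10 with a row, Hsd17b4, Hsd17b11 and Hsd17b12 were measured, with ML to LP ratios of 1.77, 1.60 and 1.45. Cyp19a1 (aromatase), Hsd17b1 and Sult1e1 had no count in either class. The glucocorticoid-converting enzymes Hsd11b1 and Hsd11b2 had 6 and 4 counts in ML. The 5 cell cycle genes had between 2 and 16 counts each in ML, too few to compare.

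**Figure D5:**
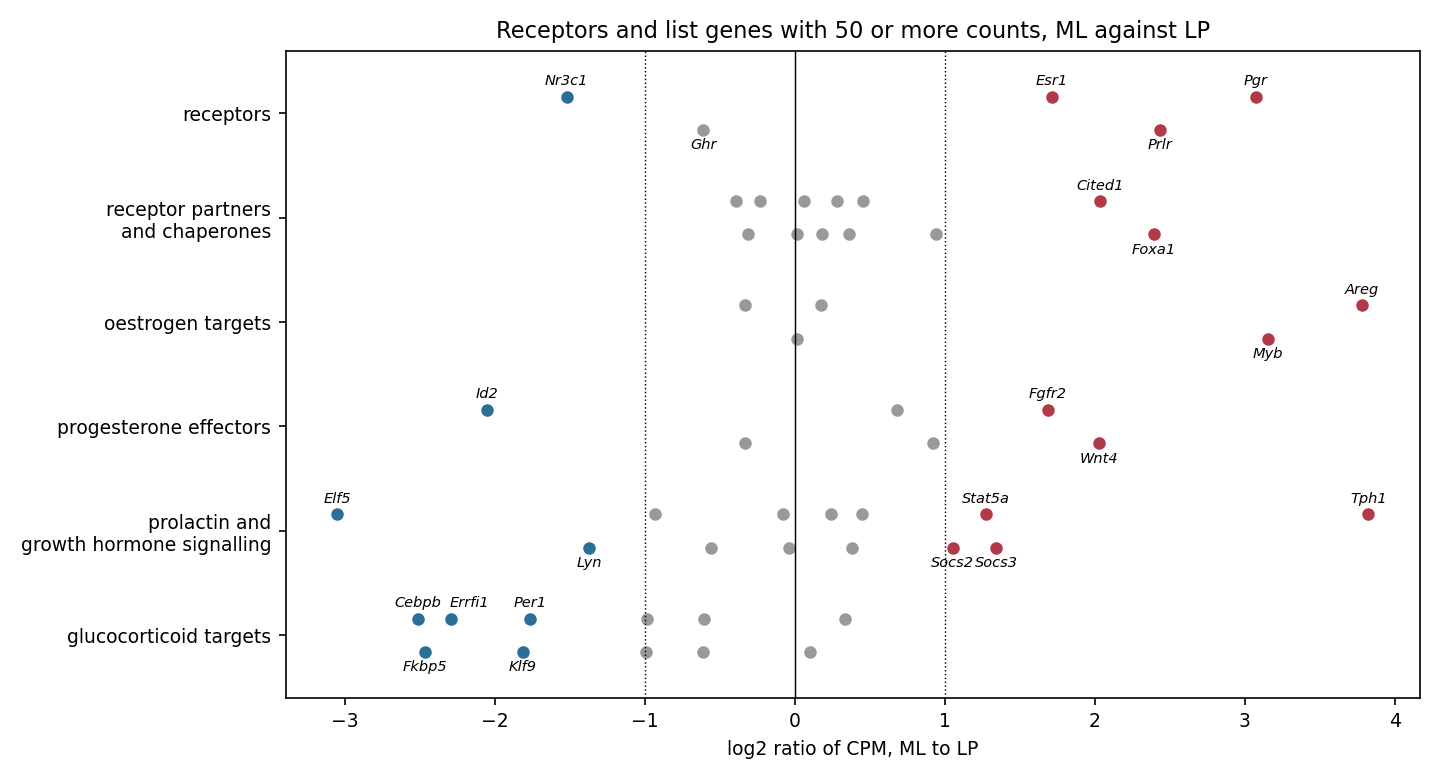
Log2 ratio of CPM in ML to LP (x axis) for the receptors and the genes of 5 lists (rows) with 50 or more counts, 1 point per gene. Dotted lines mark 2-fold, red points are 2-fold or more higher and blue points 2-fold or more lower in ML. Nr3c1 and 5 glucocorticoid targets are blue. Esr1, Pgr and Prlr are red, and Areg, Tph1, Wnt4 and Foxa1 are among the other red points. Elf5 and Lyn of the prolactin list and Id2 of the progesterone list are blue. Areg and Foxa1 are also ML markers, and Elf5 is also an LP marker.

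ML cells with a count of a receptor were then compared with ML cells without one, after weighting both sides to the same depths. For Esr1, 8.14% of 6526 genes were 1.5-fold or more higher in the 96 positive cells and 10.6% lower. For Pgr (184 cells) the shares were 4.21% and 7.23%, and for Ghr (65 cells) 10.2% and 16.1%. With so few cells on a side these shares include counting error.

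For Esr1 and Pgr, no measured gene of the matching target list was 1.5-fold higher in the positive cells. Among all genes 8.14% and 4.21% were higher, so none in such short lists is near those shares. None of the 5 measured oestrogen targets was 1.5-fold higher or lower in Esr1-positive cells. Areg was at 2864 CPM in Esr1-positive and 3126 in Esr1-negative ML cells (ratio 0.916). Of 6 progesterone effectors, none was higher in Pgr-positive cells and 2 were lower. Wnt4 was at 29.4 against 31.8 CPM (0.926), and Tnfsf11 was seen in 5 of 184 positive cells (2.72%, 0.888 to 6.23%) and 34 of 895 negative cells (3.8%, 2.64 to 5.27%). The 2 lower genes were Tnfsf11 (0.526) and Calca (0.647), which each rested on 6 counts in the positive cells. Areg was at 3769 against 2979 CPM (1.27) in these cells. Of 12 measured genes of prolactin and growth hormone signalling, 1 was 1.5-fold or more higher in Pgr-positive cells and 1 lower. Among all genes the shares were 4.21% and 7.23%. Tph1 was 1.55-fold higher in Pgr-positive cells, at 1411 against 911 CPM, and Stat5b was lower (0.541, from 9 counts in the positive cells). Tph1 went the other way with Esr1, at 532 CPM in Esr1-positive and 1064 CPM in Esr1-negative ML cells. The shares of these cells with Tph1 were 35.4% (25.9 to 45.8%) and 46.4% (43.2 to 49.6%), with overlapping intervals.

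The genes with the highest ratios in receptor-positive cells rested on few cells. For Pgr the first was Ctsr, a cathepsin, at 4.15-fold, but it was seen in 6 of 184 positive and 37 of 895 negative cells, and 1 cell held 316 of the 428 counts. Next came the angiogenins Ang5 (2.29-fold, in 17.4% of positive and 11.3% of negative cells) and Ang4 (1.82-fold), then Mrps23 and Nmi (1.79- and 1.76-fold). For Esr1 the first was Csf3 at 1.95-fold, seen in 8 positive cells with up to 51 counts, followed by Peak1, Sec14l1, Med8 and Akt2 (1.90- to 1.82-fold).

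The milk protein genes Lalba and Csn1s2a had the highest ratios in Ghr-positive ML cells. Lalba was at 690 against 138 CPM (4.99-fold) and was seen in 12 of 65 positive cells (18.5%, 9.92 to 30.0%) and 60 of 1014 negative cells (5.92%, 4.55 to 7.55%). Csn1s2a was 3.16-fold higher and was seen in 13 positive (20%) and 63 negative cells (6.21%), with 373 of its 691 counts in 1 positive cell. Dbi, Ang5 and Dusp5 followed at 2.79-, 2.79- and 2.58-fold. The LP markers Csn3 (2.49-fold), Elf5 (2.45-fold) and Trf (2.24-fold) were also higher in these cells. The rest of the LP marker list is not given here, so these genes do not stand for the list. Of the 202 ML cells with 3 or more LP marker counts, 22 had Ghr (10.9%, 6.95 to 16%), against 43 of 877 others (4.90%, 3.57 to 6.55%). Those 202 cells were deeper (median 5050.5 counts), and at 800 counts per cell the 2 shares would be 1.82% and 1.40%.

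For Nr3c1 (33 cells; 14.4% of 6527 genes higher and 23.1% lower) the 5 first genes were the stromal genes Col3a1, Pi16, Igfbp6 and Ptx3, between 142- and 74.6-fold, and Ugdh at 10.7-fold. Col3a1 was seen in 6 of the 33 positive cells, with up to 96 counts in a cell. In the 1069 ML cells with luminal keratin, where 28 had Nr3c1, none of these 5 was among the first, which became Cst3, Ctsr, Rrp7a, Igfbp5 and Fcgbp (3.75- to 2.60-fold). There, 4 of 10 glucocorticoid targets were 1.5-fold or more higher in Nr3c1-positive cells, against 14.5% of all genes, and 1, Zbtb16, was lower, against 23% of all genes. The list median was 1.2, against 0.959 over all genes. Those higher were Per1 (2.62-fold, 8 counts in positive cells), Dusp1 (2.44-fold, 230 counts), Klf9 (1.97-fold, 33 counts) and Cebpb (1.90-fold, 8 counts). The list was not particular to Nr3c1. In Ghr-positive ML cells with luminal keratin, 4 of the 10 targets were also higher and 0 lower, with a median of 1.25 against 0.970. Over all ML cells, 10.2% of genes were higher in Ghr-positive cells. In Esr1- and Pgr-positive cells 0 of the 10 targets were higher. Over all ML cells 8.14% and 4.21% of all genes were, so 0 of 10 is near those shares. For Prlr the 43 negative cells were too few: the first 5 genes by the rule, among them Aqp3 and Ctsj, had 0 counts there, and 33.3% of 6526 genes passed 1.5-fold higher and 18.2% lower.

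Across all 3302 cells, the genes whose levels were most like each receptor were described by Pearson r of log-scaled counts, without a test, since the cells share a library and differ in depth. For Prlr they were Ptn (r = 0.783), Krt7 (0.781), Wfdc2 (0.755), Ly6d (0.737) and Cxcl15 (0.733), each seen in 81.7% to 98.9% of ML cells. For Pgr the first was Prlr itself (0.291), then Tmed3, Cxcl15, Wfdc2 and Ptn. For Esr1 it was also Prlr (0.169), then Cited1, Cdo1, Hist1h2bc and Nek7. For Nr3c1 the first were Sparc (0.125), Vim, Meg3, Serpinh1 and Igfbp7, of which Sparc was seen in 90.9% of basal and 3.8% of ML cells. For Ghr they were Mt1 (0.0889), Chil1, Apoe, Mt2 and Cxcl14. The values for Esr1, Nr3c1 and Ghr are weak correlations in sparse counts and are given only as an order.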

How the data were processed

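Single-cell libraries were made from sorted adult mouse mammary cells with the 10X Genomics Chromium 3′ chemistry. The authors deposited 1 filtered matrix of counts per library, whole numbers of distinct molecules per gene and cell, made with Cell Ranger 1.2.1 on mm10 per the submitters' processing notes. The annotation release is not given in the sources used here. The cell numbers in the files equal those in the labels. Counts were summed per gene, so isoforms of a receptor, such as the long and short forms of Prlr, are not separated, and reads near the 3′ end of a gene carry no length scaling.

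No cell was removed and no doublet caller was run. Cells were assigned to classes by summed marker counts (basal first, then ML, then LP), levels were summed counts per 1000000 counts of the class (CPM), and thinned shares were computed exactly from each cell's counts. With 1 library per group no test across samples was possible. Shares carry exact Clopper-Pearson and sums exact Poisson 95% intervals, and ratios of sums an exact conditional binomial interval. Expected co-detection multiplied the shares within 10 equal depth bins of ML cells. Ratios between classes used genes with 50 or more counts in the 2 sets of cells compared, and receptor-positive and receptor-negative ML cells were weighted to the same number of cells in each depth bin. The genes named for each receptor were the first 5 by ratio among those with 200 or more counts, and the first 5 by Pearson r of log counts per 10000 among genes seen in 5% or more of cells. Of each gene list the members past the fold were named, with up to 4 others of most counts, and further members were named after their values were seen. The receptors, the cuts and the gene lists were chosen with earlier results of these data known. The list genes Cebpd and Sts had no row. The values of 1 list gene are not reported here.

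The scripts used Python 3.11.15, numpy 2.4.6, scipy 1.17.1 and matplotlib 3.10.9 and were tested on simulated data. Gene positions came from GENCODE on GRCm38 and upstream windows from RefSeq on GRCm38.p6. The alternatives tried were other ML cuts, LP cells with fewer or no ML rule counts, cells past both cuts counted as ML, ML cells without the deepest 5%, without LP markers or with luminal keratin, thinning, the mean of per-cell CPM, no depth bins, and other count minimums.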

Additional observations from a re-analysis of the deposited data

How the results depend on the processing

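Of 206 values recomputed under an alternative, 166 moved by less than their counting interval or, for counts of genes, by less than 1.5 times, and 40 moved further. No ML to LP ratio crossed 1. Some co-detection ratios whose intervals held 1 did: without ML cells holding 3 or more LP marker counts Esr1 with Pgr was at 0.960, Pgr with Ghr at 0.901 and Pgr with Nr3c1 at 1.05, with thinning Esr1 with Pgr was at 0.836 and Pgr with Ghr at 0.835, and Prlr with Ghr was at 1.01 without depth bins and just above 1 with luminal keratin required. The ML to LP ratios depended on where the 141 LP cells with 3 to 7 Stc2 + Gpx3 counts were placed. With LP cells that had none of these counts the ratios were 6.25 for Esr1, 85.6 for Pgr and 23.2 for Prlr, and with LP cells that had 2 or fewer, a limit chosen after seeing the data, 5.80, 114 and 18.3. An ML cut of 4 counts gave 15.9 for Pgr and 12.3 for Prlr, and a cut of 16 gave 1.69, 3.52 and 2.85 for Esr1, Pgr and Prlr, since it moves ML cells into LP. The mean of per-cell CPM gave 4.77 for Prlr. Thinning each ML cell to 800 counts lowered the shares with Esr1 to 2.30%, Pgr to 4.82%, Prlr to 72.7%, Nr3c1 to 0.711% and Ghr to 1.48%, and the share with 2 or more receptors to 6.73%. The ratio of observed to expected co-detection was 0 for Esr1 with Nr3c1 and for Nr3c1 with Ghr at an ML cut of 16, and 0 for Nr3c1 with Ghr without ML cells holding 3 or more LP marker counts, each from the loss of the 1 cell counted. Genes 2-fold higher in ML numbered 3472 without a count minimum and 452 at 200 counts (1042 as reported), and those lower 2359 and 303 (676 as reported). At 200 counts the genes past 1.5-fold higher and lower were 52 and 90 for Esr1, 21 and 46 for Pgr, 741 and 301 for Prlr, 177 and 420 for Nr3c1 and 112 and 203 for Ghr. Without the 25 cells past both cuts, 0.703% of basal cells had Pgr and 3.51% had Prlr. LP cells with 2 or fewer rule counts had Esr1 in 1.18%, Pgr in 0.147% and Prlr in 19.1%. Restricting ML to cells with luminal keratin moved none of these values.

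No paired analysis was possible because each group is 1 library and the labels carry no replicate numbers. Depth limits the reading of Esr1, Pgr, Nr3c1 and Ghr, for which most positive ML cells had 1 count, so a cell without a count is not shown to lack the transcript. Doublets and free RNA were not removed, and their part in the co-detection was not tested. With 1 library, cycle stage and animal cannot be told apart from it.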

Other observations

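The 97 cells outside the 3 classes were mixed. Nr3c1 was their leading receptor, with a count in 12 cells, while Pgr was not seen, Prlr was seen in 3 cells and Esr1 in 1. Of these cells 42 had 3 or more fibroblast marker counts, and 8 of the 42 (19.0%, 8.60 to 34.1%) had Nr3c1, 1 had Prlr and none had Esr1, Pgr or Ghr. All 6 Ghr-positive cells were among the other 55 (10.9%, 4.11 to 22.2%).

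The level of Prlr within ML cells depended on the depth of the cell. In the shallowest of the 10 depth bins Prlr was at 2263 CPM and in the deepest at 1350 CPM, although the share of cells with a count went from 82.4% to 100%. Pgr was at 108 and 45.0 CPM in these bins, and Esr1 at 36.1 and 27.8 CPM. The ML cells with 3 or more LP marker counts, which were deeper, had less Prlr (1422 CPM, 1350 to 1497) than the other ML cells (2013 CPM, 1962 to 2065). Pgr was at 41.8 CPM (30.2 to 56.3) in the former and 63.9 CPM (55.1 to 73.7) in the latter, with intervals that just overlapped. Nr3c1 was at 15.5 CPM (8.88 to 25.2) in the former and 7.13 CPM (4.42 to 10.9) in the latter, with overlapping intervals. The part of doublets of an ML and an LP cell in these differences was not tested.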
